A study of Mus musculus with 20 samples.

Results

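The levels of 10 genes of mast cells and of histamine were followed in the mouse uterus just before embryo implantation. They were taken by gene symbol, and are Cma1, Mcpt4, Cpa3, Tpsb2, Kit, Fcer1a and Ms4a2, which mark mast cells, and Hdc, Hrh1 and Hrh2, which make or bind histamine, so 10 of the 45777 genes in the expression table. All 10 were above 0 TPM (a transcript level corrected for transcript length and for the library's total) in each of the 20 libraries, and so all 10 were among the 18706 genes tested. Uteri of wild-type B6D2F1 females aged 8 to 12 weeks, mated with males, were taken at 18:00 on day 3.5, with the plug morning as day 0.5, and 1 uterine horn of each mouse gave 1 RNA-seq library. The control group (n = 5 mice) received nothing. The implantation failure (IF) group (n = 5) received RU486, an antagonist of the progesterone and glucocorticoid receptors, under the skin on the morning of day 3.5. The PBMC and PBMC-hCG groups (n = 5 each) received the same RU486 and, on day 1.5, peripheral blood mononuclear cells of non-pregnant mice in both uterine horns, after culture without or with human chorionic gonadotropin (hCG). Control and IF mice had no intrauterine injection, and mice given medium without cells were not analysed here, so the cells and the injection cannot be told apart.

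Mast cells are resident in the uterine wall, mainly in the muscle layer and around vessels. Their granules hold histamine and proteases, which are released when antigen cross-links IgE bound to the high-affinity IgE receptor, or on other stimuli, and their survival depends on stem cell factor acting on the receptor KIT. Histamine is made from histidine in a single step by histidine decarboxylase, the product of Hdc, and the mouse uterine epithelium also makes this enzyme before implantation, under progesterone. Histamine then acts on receptors of the muscle, vessels, epithelium and embryo, and its role in preparing the uterus for the embryo has long been studied.

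The read depth behind each value is unknown, since TPM add up to the same sum in every library. Replicates are separate mice. In control replicate 2, the summed level of 6 adipose genes was 615.7 TPM against 3.43 to 33.0 TPM in the other control mice, and up to 141 TPM in IF replicate 5, 51.1 TPM in PBMC replicate 4 and 15.9 TPM in the PBMC-hCG group. The sum of 6 epithelial genes was also high in control replicate 2, at 1021 TPM against 553.9 to 668.3 TPM in the other control mice. Its sum of 6 stromal genes was low, at 3887 TPM against 5600 to 6226 TPM. Control replicates 2 and 5 also stood apart from the other control mice in Hdc, as described below. Markers of the cells that share genes with mast cells were low: the sum of the basophil genes Mcpt8, Prss34 and Cd200r3 was 0.552 to 2.27 TPM over the 20 mice. Of 5 melanocyte genes, Tyr and Tyrp1 were listed at 0 in every library, and the sum of the others, Pmel, Dct and Mlana, was 0.589 to 1.62 TPM. In these whole-tissue samples, fewer mast cells and less RNA per mast cell cannot be told apart.

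The members spanned a wide range of levels. Averaged over the 20 mice, Hdc was the highest at 115 TPM, followed by Kit at 25.7, Cma1 at 19.6, Mcpt4 at 17.9, Tpsb2 at 13.8 and Cpa3 at 12.6 TPM. Fcer1a was at 1.13, Hrh1 at 0.868, Hrh2 at 0.750 and Ms4a2 at 0.282 TPM. Most neighbours in this order kept it within the mouse: Hdc exceeded Kit in 20 of 20 mice, Kit exceeded Cma1 in 17, Cma1 exceeded Mcpt4 in 15, Mcpt4 exceeded Tpsb2 in 19, Tpsb2 exceeded Cpa3 in 17 and Cpa3 exceeded Fcer1a in 20. The order of the low genes was less fixed, since Fcer1a exceeded Hrh1 in 13 mice and Hrh1 exceeded Hrh2 in 8 mice, so the levels of these neighbours were not separated beyond their spread, whereas Hrh2 exceeded Ms4a2 in 19 mice. The plot of levels by mouse shows each member on its own scale.

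**Figure D1:**
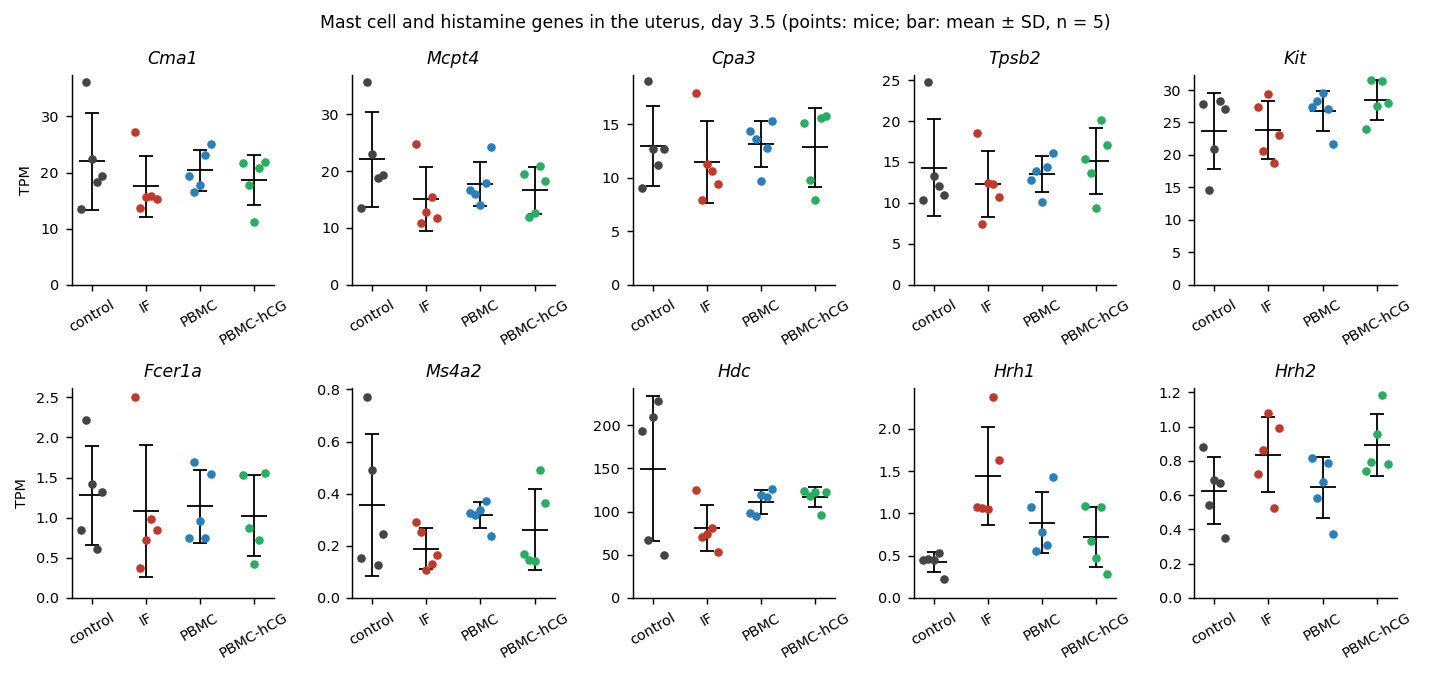
Level of each member in TPM (vertical axis, from 0) by group; points are mice and bars are mean ± SD (n = 5). The groups overlap for most members, the Hrh1 points of the IF group lie at 1.055 to 2.38 TPM above all control points, and Hdc of the control group splits into 3 mice at 193.8 to 228.2 TPM and the others at 50.2 and 67.2 TPM.

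The 4 granule proteases were described first. Cma1 (chromosome 14, 55941451 to 55944675, minus strand) encodes the chymase mMCP-5, and Mcpt4 (chromosome 14, 56059744 to 56062310, minus strand) the chymase mMCP-4. Both lie within 121 kb in the granule protease cluster, in the GRCm38.p6 annotation of RefSeq. Cpa3 (chromosome 3, 20215616 to 20242209) encodes the mast cell carboxypeptidase, and Tpsb2 (chromosome 17, 25366308 to 25368096) the tryptase mMCP-6. The gene Mcpt2, a further member of the chymase family between Cma1 and Mcpt4, was at 20.8 TPM on average, while Mcpt1 was listed at 0 in all libraries.

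The 250 bases before the annotated start of 6 members are shown because the proteases and, less closely, the IgE receptor genes varied together from mouse to mouse, as given below, and because Hrh1 was the member called between groups. The sequences are from RefSeq promoter windows of GRCm38.p6, written from 5′ to 3′ on the gene's strand. Capitals mark matches, on either strand, of AGATAA or TGATAA, sequences bound by GATA factors such as GATA2, and of CATGTG or CACGTG, E-boxes of the kind that MITF binds.
Cma1: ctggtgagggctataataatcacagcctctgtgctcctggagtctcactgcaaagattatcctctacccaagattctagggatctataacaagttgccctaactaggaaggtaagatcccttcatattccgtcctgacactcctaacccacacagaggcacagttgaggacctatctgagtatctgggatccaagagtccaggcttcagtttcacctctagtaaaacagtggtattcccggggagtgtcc
Mcpt4: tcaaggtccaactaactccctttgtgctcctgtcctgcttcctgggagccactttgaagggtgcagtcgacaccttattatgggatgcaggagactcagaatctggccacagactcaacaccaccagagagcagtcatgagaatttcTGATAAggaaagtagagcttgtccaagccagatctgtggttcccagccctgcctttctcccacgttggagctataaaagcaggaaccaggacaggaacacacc
Cpa3: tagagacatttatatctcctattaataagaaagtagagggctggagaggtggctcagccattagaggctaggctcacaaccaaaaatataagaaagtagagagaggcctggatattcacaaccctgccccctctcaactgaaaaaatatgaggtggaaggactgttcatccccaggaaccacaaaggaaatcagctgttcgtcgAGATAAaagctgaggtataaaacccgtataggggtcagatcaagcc
Fcer1a: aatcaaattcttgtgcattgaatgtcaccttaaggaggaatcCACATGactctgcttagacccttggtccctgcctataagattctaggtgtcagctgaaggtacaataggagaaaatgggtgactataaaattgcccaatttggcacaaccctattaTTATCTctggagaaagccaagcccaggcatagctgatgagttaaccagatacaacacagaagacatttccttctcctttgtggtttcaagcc
Ms4a2: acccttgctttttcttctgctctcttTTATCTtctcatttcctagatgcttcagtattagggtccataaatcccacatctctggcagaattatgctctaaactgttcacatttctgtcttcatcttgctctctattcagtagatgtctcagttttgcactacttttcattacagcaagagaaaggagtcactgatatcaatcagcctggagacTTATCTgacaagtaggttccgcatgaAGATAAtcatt
Hrh1: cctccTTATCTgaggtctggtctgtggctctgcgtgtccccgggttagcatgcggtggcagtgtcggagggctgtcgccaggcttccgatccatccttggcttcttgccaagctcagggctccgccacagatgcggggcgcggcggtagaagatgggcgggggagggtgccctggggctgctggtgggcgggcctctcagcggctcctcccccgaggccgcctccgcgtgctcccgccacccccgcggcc
The windows are Cma1 chr14:55944676-55944925 (minus strand), Mcpt4 chr14:56062311-56062560 (minus), Cpa3 chr3:20242182-20242431 (minus), Fcer1a chr1:173227230-173227479 (minus), Ms4a2 chr19:11623720-11623969 (minus) and Hrh1 chr6:114397686-114397935 (plus, the first of 4 annotated starts). The Ms4a2 window held 3 matches, whose first bases lay 224, 37 and 11 bases before the start, and the Cpa3 match began 46 and the Mcpt4 match 103 bases before it. The Cma1 window held none. Windows were found for 9 of the 10 members, 14 in all and each reaching 50 bases past the start, and not for Tpsb2. AGATAA or TGATAA was present in 7 of these 14 windows, belonging to 5 of the 9 genes (Cpa3, Fcer1a, Hrh1, Mcpt4 and Ms4a2), and in 18.6% of 32851 windows of the same length over all genes. Several of the 7 are alternative starts of Hrh1, and no share by gene was computed over all genes. CATGTG was in 1 window each of Fcer1a and Hrh1 and in 14.2% of all windows, and CACGTG was in none of the members' windows and in 7.15% of all. The full palindromes of the estrogen response element and of the glucocorticoid and progesterone response element, each with any 3 bases between its arms, were in none of the members' windows, and in 23 and 3 of all windows. A match is a stretch of letters and not a measured binding site, and the absence of a match concerns these windows alone.

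Levels of the chymases were close to each other and overlapped between groups. Cma1 was at 13.5, 36.2, 22.5, 18.3 and 19.4 TPM in control replicates 1 to 5, and at 27.2, 13.6, 15.7, 15.9 and 15.3 TPM in IF replicates 1 to 5. Mcpt4 was at 13.5, 35.7, 23.0, 18.9 and 19.3 TPM in the same control mice and at 24.7, 10.9, 12.9, 15.4 and 11.7 TPM in the IF mice. Control replicate 2 was the highest mouse of its group and IF replicate 1 the highest of the IF group for both genes, and the remaining IF mice lay at or below most control mice. In the PBMC group Cma1 was at 19.4, 16.5, 17.9, 23.1 and 25.1 TPM and Mcpt4 at 16.6, 15.9, 14.01, 17.8 and 24.3 TPM, and in the PBMC-hCG group Cma1 was at 21.6, 17.8, 11.2, 20.8 and 21.9 TPM and Mcpt4 at 19.5, 11.8, 12.6, 20.9 and 18.2 TPM. Cpa3 averaged 12.9 ± 3.75 TPM in control, 11.4 ± 3.83 in IF, 13.2 ± 2.16 in PBMC and 12.9 ± 3.68 TPM in PBMC-hCG mice (SD, n = 5 each). Tpsb2 averaged 14.3 ± 5.97, 12.3 ± 4.02, 13.5 ± 2.21 and 15.1 ± 4.01 TPM in the same order.

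No protease passed the test between IF and control mice. The log2 fold changes, on the log2(TPM + 0.1) scale used throughout, were -0.29 (SE 0.24) for Cma1, -0.54 (SE 0.25) for Mcpt4, -0.19 (SE 0.23) for Cpa3 and -0.20 (SE 0.25) for Tpsb2. The largest of them, Mcpt4, had a 95% confidence interval of 0.480 to 0.989 for its fold, and an adjusted p of 0.134 (limma, adjusted by the Benjamini-Hochberg method over the 18706 genes). The Mcpt4 difference moved with single mice: it was -0.73 with an adjusted p of 0.0339 without IF replicate 1, and -0.35 with an adjusted p of 0.299 without control replicate 2. Without control replicate 2, the mouse with high adipose and epithelial and low stromal sums, Cma1 was at -0.09, Cpa3 at -0.04 and Tpsb2 at 0.01. The share of the adipose tissue, or of the other tissue differences, in this mouse's protease level was not tested. The summed level of the 4 proteases was 116 TPM in control replicate 2 and 46.4 to 71.6 TPM in the other control mice. It was 88.3 TPM in IF replicate 1 and 39.8 to 54.2 TPM in the other IF mice, 51.7 to 80.8 TPM in the PBMC group and 41.1 to 77.3 TPM in the PBMC-hCG group.

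**Figure D2:**
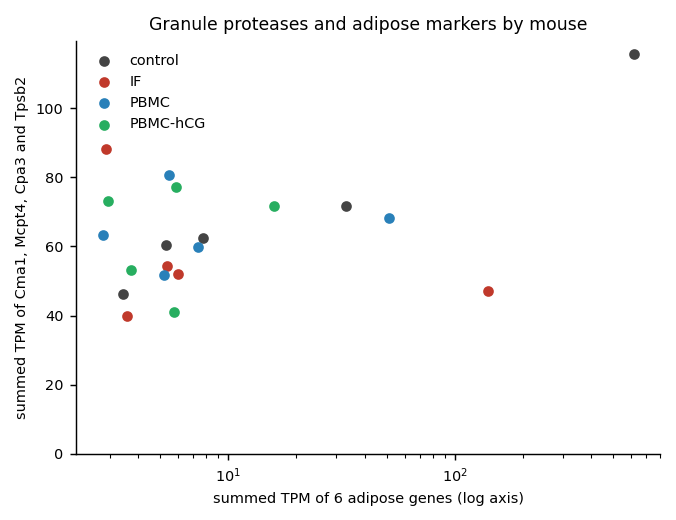
Summed TPM of Cma1, Mcpt4, Cpa3 and Tpsb2 (vertical axis) against the summed TPM of 6 adipose genes (horizontal log axis), 1 point per mouse, coloured by group. Control replicate 2 stands alone at the upper right with 116 TPM of proteases and 615.7 TPM of adipose genes, while IF replicate 5 has 141 TPM of adipose genes and 47.2 TPM of proteases.

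After PBMC administration the proteases were not distinguishable from the IF group. In PBMC mice the log2 fold changes against IF were 0.24 for Cma1, 0.27 for Mcpt4, 0.24 for Cpa3 and 0.18 for Tpsb2, with adjusted p-values of 0.834 to 0.899 (limma). These values moved with single mice: without IF replicate 1 they were 0.41, 0.46, 0.42 and 0.34, and without IF replicate 2 they were 0.16, 0.17, 0.12 and 0.016. In PBMC-hCG mice they were 0.10, 0.17, 0.17 and 0.32, with adjusted p-values of 0.380 to 0.807 (limma), and they fell to between 0.016 (Cma1) and 0.15 (Tpsb2) without IF replicate 2. The intervals bound these differences: the fold of Cma1 in PBMC-hCG over IF lay between 0.757 and 1.51, and that of Tpsb2 between 0.867 and 1.79. Between PBMC-hCG and PBMC mice the 4 log2 fold changes ran from -0.15 to 0.13. The comparisons with the IF group share its 5 mice, so they are not independent of each other.

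The IgE receptor and Kit were considered next. Fcer1a (chromosome 1, 173221269 to 173227232) encodes the IgE-binding alpha chain, and Ms4a2 (chromosome 19, 11615517 to 11623790) the signal-amplifying beta chain. Fcer1a averaged 1.28 ± 0.617 TPM in control, 1.08 ± 0.825 in IF, 1.14 ± 0.451 in PBMC and 1.02 ± 0.505 TPM in PBMC-hCG mice (SD, n = 5 each), with overlapping ranges. Ms4a2 was at 0.152, 0.772, 0.490, 0.127 and 0.247 TPM in the control mice and at 0.292, 0.253, 0.107, 0.132 and 0.164 TPM in the IF mice. It was at 0.327, 0.318, 0.339, 0.370 and 0.236 TPM in the PBMC mice, of which 4 of 5 were above the highest IF mouse, and at 0.171, 0.147, 0.142, 0.490 and 0.363 TPM in the PBMC-hCG mice, of which 2 of 5 were. Against IF, Ms4a2 in the PBMC group differed by 0.56 on the log2 scale (SE 0.33, limma adjusted p = 0.768), with a two-sided exact permutation p of 0.0238 that is not adjusted for the 60 such tests run on the members, 5 of which were below 0.05. At such low levels the value of a single read is unknown.

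Kit (chromosome 5, 75574987 to 75656722), which encodes the stem cell factor receptor and is also made by other uterine cells, did not follow the proteases. It was at 27.8, 14.7, 20.8, 28.3 and 27.02 TPM in control mice, so that control replicate 2, the highest for the proteases, was the lowest for Kit. The IF mice had 27.4, 20.6, 29.4, 18.8 and 23.0 TPM, the PBMC mice 27.3, 28.3, 29.6, 27.02 and 21.6 TPM and the PBMC-hCG mice 24.04, 31.5, 27.5, 31.3 and 27.9 TPM. All ranges overlapped. The log2 fold change was 0.03 (SE 0.16, limma adjusted p = 0.926) between IF and control and 0.27 (SE 0.16, limma adjusted p = 0.243) between PBMC-hCG and IF, with a 95% interval of 0.953 to 1.52 for the latter fold.

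Over the 7 mast cell genes, 0 passed adjustment in any of the comparisons. Between IF and control 6 of 7 had a negative log2 fold change, with a median of -0.29 against 0.02 over all tested genes, of which 46.6% were negative. Between PBMC and IF 7 of 7 were positive, with a median of 0.24 against 0.02 over all genes, and between PBMC-hCG and IF 7 of 7 were positive, with a median of 0.17 against 0.05. Since the proteases vary together from mouse to mouse and the IF mice enter all 3 comparisons, these counts are a description and carry no test. Of all 18706 genes, 21.9% passed in IF against control, 0% in PBMC against IF, 13.6% in PBMC-hCG against IF and 0.0107% in PBMC-hCG against PBMC, and 19.5% and 31.8% in PBMC and PBMC-hCG against control. Among the 10 members, the corresponding counts were 1, 0, 0, 0, 0 and 0. At a raw p under 0.05, which 33.9%, 6.79%, 35% and 16.2% of all genes had in the first 4 of these, the counts were 2, 0, 1 and 0. In IF against control, fold changes of at least 2 with a raw p under 0.05 were found in 1 of the 10 members and in 4.03% of all genes. The plot of fitted differences shows the members together.

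**Figure D3:**
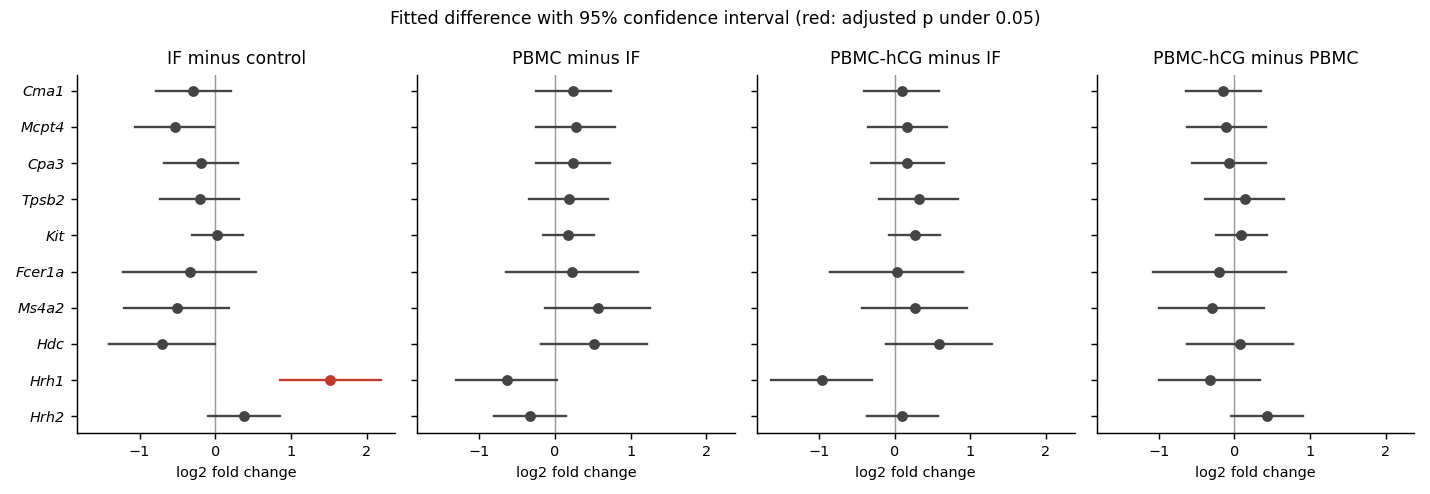
Log2 fold change of each member (horizontal axis, log2(TPM + 0.1) scale) with its 95% confidence interval from limma, in 4 comparisons of 5 against 5 mice; red marks an adjusted p under 0.05. Hrh1 in IF against control, at 1.52, is the single red point, and the intervals of the mast cell genes cross 0 apart from that of Mcpt4 in IF against control, whose adjusted p is 0.134.

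Hdc (chromosome 2, 126593659 to 126624025) was the most abundant member. It was at 193.8, 67.2, 210.0, 228.2 and 50.2 TPM in control replicates 1 to 5, and at 124.7, 70.4, 73.7, 80.5 and 53.4 TPM in IF replicates 1 to 5. Thus 3 control mice were above all IF mice, whereas control replicates 2 and 5 lay within the IF range. In the PBMC group Hdc was at 98.3, 95.4, 119.4, 117.5 and 125.8 TPM, and in the PBMC-hCG group at 123.4, 118.2, 122.5, 96.7 and 123.2 TPM. The mice of these groups were close to each other, with a coefficient of variation of 12.2% and 9.79% against 56.3% in the control and 33.0% in the IF group, and 4 of 5 IF mice lay below all of them.

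The differences of Hdc did not pass adjustment. IF mice averaged 80.6 ± 26.6 TPM and control mice 150 ± 84.3 TPM (SD, n = 5 each), a log2 fold change of -0.70 (SE 0.33, limma adjusted p = 0.150) with a 95% interval of 0.379 to 1.002 for the fold. This call depended on the 2 low control mice: the log2 fold change was -0.92 (limma adjusted p = 0.0435) without control replicate 2 and -1.03 (limma adjusted p = 0.0142) without control replicate 5, and -0.48 (limma adjusted p = 0.351) without control replicate 4. Against IF, Hdc differed by 0.51 (SE 0.33, limma adjusted p = 0.783) in PBMC mice at 111 ± 13.5 TPM and by 0.59 (SE 0.33, limma adjusted p = 0.218) in PBMC-hCG mice at 117 ± 11.4 TPM (SD, n = 5 each). In two-sided exact permutation tests, among those counted above, both comparisons had an unadjusted p of 0.0476. Between PBMC-hCG and PBMC mice the log2 fold change was 0.07, and the interval of the fold was 0.647 to 1.71. These SE and intervals rest on 1 spread shared by the 4 groups, although the spread of Hdc differed between them as given above. With the 2 groups of a comparison fitted alone, the limma adjusted p was 0.325 in IF against control and 0.687 in PBMC against IF. It was 0.0548 in PBMC-hCG against IF and 0.654 in PBMC-hCG against PBMC.

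The 10 genes whose level was most like that of Hdc from mouse to mouse were on none of the mast cell lists used here. Of 15764 genes with a mean of at least 1 TPM, the most similar over the 20 mice were Dcxr (Pearson r = 0.93), a reductase of sugars and carbonyls, and Lrp2 (r = 0.92), which encodes the endocytic receptor megalin, with E130008D07Rik, Slc25a48, Coro2a, Anpep, Ctsd, Noxa1 and Cyp3a59 also among the 10 (r = 0.88 to 0.91). Without control replicate 2 the r of Dcxr was 0.93 and that of Lrp2 0.92, and without control replicate 5 both were 0.92 (n = 19). The correlations are over 20 mice that share 4 treatment groups, and are given without a test. Lrp2 was at 24.3, 3.01, 22.4, 24.3 and 4.16 TPM in control replicates 1 to 5, and Dcxr at 79.9, 36.4, 87.4, 93.4 and 26.2 TPM. Control replicates 2 and 5 were low in these genes as in Hdc. The genes were chosen by their r with Hdc over the same mice, so this is no separate support. The 4 proteases had r between -0.01 and 0.14 with Hdc.

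The histamine receptors were expressed at low levels. Hrh1 (chromosome 6, 114397936 to 114483298) encodes the H1 receptor, which signals through Gq and calcium, and Hrh2 (chromosome 13, 54191970 to 54236182) the H2 receptor, which raises cyclic AMP. Hrh1 was at 0.452, 0.463, 0.444, 0.534 and 0.225 TPM in control mice and at 1.07, 1.07, 1.055, 2.38 and 1.63 TPM in IF mice. Every IF mouse was above every control mouse, a separation found in 12.8% of all genes (8.55% with the IF mice higher) and in no other member. The log2 fold change was 1.52 (SE 0.32, limma adjusted p = 0.00205), a fold of 2.87 with a 95% interval of 1.81 to 4.56, and the two-sided exact permutation p was 0.00794, the smallest that 5 against 5 mice can give. Hrh1 was the only member called between IF and control, beside 21.9% of all genes (13.4% higher and 8.53% lower).

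Hrh1 was below every IF mouse in 3 of the 5 mice of each group that had received PBMC. It was at 1.07, 0.550, 0.775, 0.624 and 1.43 TPM in the PBMC group and at 1.09, 0.670, 0.473, 1.08 and 0.290 TPM in the PBMC-hCG group, and the remaining mice of both groups lay within the IF range. Against IF, the log2 fold change was -0.64 (SE 0.32, limma adjusted p = 0.746) for PBMC and -0.96 (SE 0.32, limma adjusted p = 0.0509) for PBMC-hCG. The latter corresponds to a fold of 0.513 with a 95% interval of 0.323 to 0.815, and its two-sided exact permutation p was 0.0794. It passed the threshold without IF replicate 3 (adjusted p = 0.0328) and without PBMC-hCG replicate 1 (adjusted p = 0.0244), and its highest adjusted p was 0.141, without IF replicate 5 (limma). Between PBMC-hCG and PBMC the log2 fold change was -0.32 (SE 0.32, limma adjusted p = 0.590). Compared with control, Hrh1 of the PBMC group did not overlap (log2 fold change 0.88, limma adjusted p = 0.0595), as in 12.7% of all genes, and that of the PBMC-hCG group overlapped (0.56, limma adjusted p = 0.193).

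Markers of endothelium, whose cells are known to carry the H1 receptor, and of epithelium were compared between the same groups. All 5 endothelial genes were higher in IF than in control mice (median log2 fold change 0.42), beside 13.4% of all genes. Their sums were 472.5 to 510.3 TPM in IF against 315.9 to 424.7 TPM in control, and 479.4 to 544.9 TPM in PBMC and 522.7 to 590.5 TPM in PBMC-hCG mice. Of 6 epithelial genes, 5 were higher in IF mice (median 0.37), beside the same 13.4% of all genes. The remaining gene, Krt19, had a log2 fold change of 0.36 (limma adjusted p = 0.338). The epithelial sums were 553.9 to 1021 TPM in control, 838.2 to 1070 in IF, 911.1 to 1206 in PBMC and 963 to 1239 TPM in PBMC-hCG mice. Between PBMC-hCG and IF, 1 of the 5 endothelial and 1 of the 6 epithelial genes were higher and 0 lower, where 13.6% of all genes were called in either direction. Between PBMC and IF 0 of either list were called. Of 6 stromal genes, 2 were higher and 1 was lower in IF than in control mice (median 0.05). Of 6 myometrial genes, 1 was lower in IF than in control mice, beside 8.53% of all genes. In PBMC-hCG against control mice 5 were lower, a comparison in which 31.8% of all genes were called in either direction. The median sum of the myometrial genes was 8098 TPM in control, 6407 in IF, 6672 in PBMC and 5439 TPM in PBMC-hCG mice. No marker of these lists was at 0 throughout, and their part in the Hrh1 difference was not tested.

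Hrh2 passed no test after adjustment. It was at 0.880, 0.540, 0.687, 0.673 and 0.352 TPM in control mice and 0.722, 0.861, 1.08, 0.526 and 0.993 TPM in IF mice, with overlapping ranges (log2 fold change 0.38, SE 0.23, limma adjusted p = 0.257). It averaged 0.646 ± 0.179 TPM in PBMC and 0.893 ± 0.183 TPM in PBMC-hCG mice (SD, n = 5 each). Its largest difference was in PBMC-hCG over control, at 0.48 (SE 0.23, limma adjusted p = 0.113), with a 95% interval of 1.005 to 1.93 for the fold and a two-sided exact permutation p of 0.0635. The log2 fold change between PBMC-hCG and PBMC was 0.43 (SE 0.23, limma adjusted p = 0.331), with a 95% interval of 0.973 to 1.87 for the fold.

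Genes that break down or transport histamine were examined beside the members. Of 8 listed genes 5 were tested, and between IF and control 1 was higher and 2 were lower, where 13.4% of all genes were higher and 8.53% lower. Their median log2 fold change was -0.55, against 0.02 over all genes. Slc22a3, an organic cation transporter that takes up histamine, rose from 3.49 ± 0.974 TPM in control to 9.85 ± 1.51 TPM in IF mice (SD, n = 5 each), a log2 fold change of 1.50 (SE 0.18, limma adjusted p = 1.3e-05), and the groups did not overlap. It was at 11.4 ± 2.70 TPM in PBMC and 14.3 ± 1.20 TPM in PBMC-hCG mice (SD, n = 5 each). The log2 fold change of PBMC-hCG over IF was 0.54 (SE 0.18, limma adjusted p = 0.0544), again without overlap, which 7.24% of all genes showed.

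Hnmt and Maob, which act in turn on histamine, were the lower genes in IF mice. Hnmt, histamine N-methyltransferase, was at 13.4 ± 2.33 TPM in control, 8.45 ± 2.74 in IF, 11.5 ± 3.50 in PBMC and 14.3 ± 2.44 TPM in PBMC-hCG mice (SD, n = 5 each). Its log2 fold change was -0.71 (SE 0.25, limma adjusted p = 0.0457) in IF over control and 0.80 (SE 0.25, limma adjusted p = 0.0423) in PBMC-hCG over IF. The first call was kept in 2 and the second in 3 of the 10 fits that left out 1 mouse each, and in 6 and 8 of 9 other settings of the fit. Over all genes, 13.6% were called between PBMC-hCG and IF, and this count fell from 2544 to 0 without IF replicate 5. Maob, a monoamine oxidase that acts on methylated histamine, was at 209 ± 88.0 TPM in control and 92.0 ± 29.8 TPM in IF mice. It was at 107 ± 21.0 TPM in PBMC and 126 ± 25.7 TPM in PBMC-hCG mice (SD, n = 5 each). The log2 fold change of IF over control was -1.12 (SE 0.29, limma adjusted p = 0.00999). Control replicates 2 and 5 were the lowest of their group in Maob, as in Hdc, at 85.0 and 148.5 TPM. Replicate 2 lay within the IF range of 55.1 to 120.8 TPM.

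Aoc1, the diamine oxidase, did not pass the test but was uneven in the control group. It was at 1.08, 5.89, 1.09, 1.48 and 8.80 TPM in control replicates 1 to 5, so that control replicates 2 and 5, which were low in Hdc, were high in Aoc1. The IF mice had 1.149 to 2.997 TPM. Over the 20 mice, Pearson r with Hdc was 0.55 for Hnmt, 0.74 for Maob, -0.65 for Aoc1 and -0.09 for Slc22a3. Over the 15 mice given RU486 it was 0.61, 0.68, -0.67 and 0.51. The epithelial genes Epcam, Cdh1 and Krt8 had -0.62, 0.16 and 0.17 over the 20 mice, and -0.56, 0.27 and 0.67 over the 15. These values describe mice that share their groups. Slc29a4, a further monoamine transporter, had a log2 fold change of 0.49 (limma adjusted p = 0.107) in IF over control, and Hrh3, Hrh4 and Slc22a2 were at 0 in some libraries and were not tested.

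**Figure D4:**
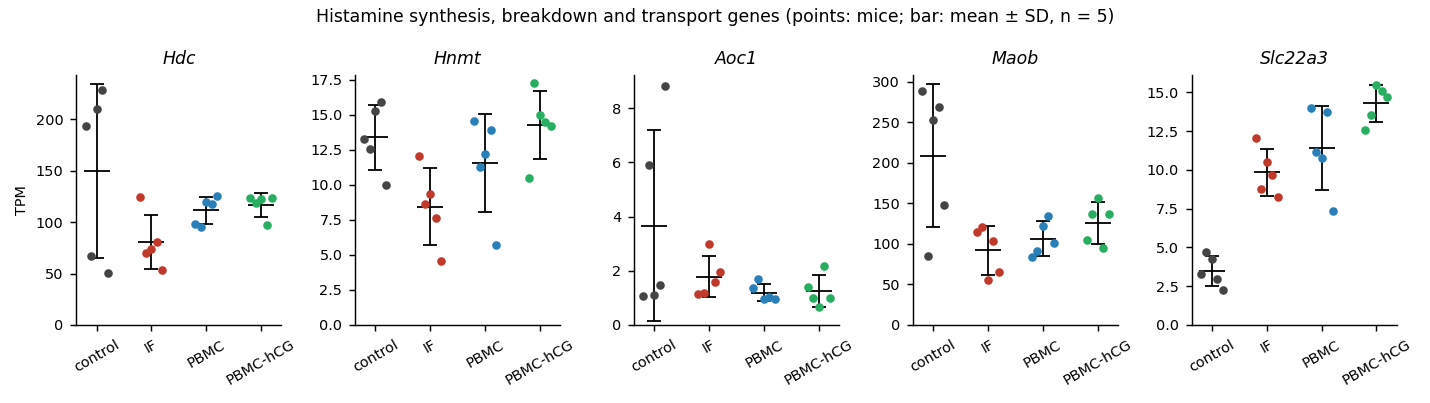
TPM (vertical axes, from 0) of Hdc, Hnmt, Aoc1, Maob and Slc22a3 by group; points are mice and bars are mean ± SD (n = 5). Slc22a3 of the control group (3.49 ± 0.974 TPM) lies below all other groups, and the pair of control mice low in Hdc is high in Aoc1 at 5.89 and 8.80 TPM.

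Further genes of mast cells were listed from general knowledge. Of 11 other granule genes 6 were tested, and 2 were higher in IF than in control mice, beside 13.4% of all genes (median log2 fold change 0.08, against 0.02 over all genes). Srgn, the serglycin core protein that packs granule proteases and is made by many blood and vessel cells, rose from 184 ± 32.9 to 398 ± 49.9 TPM (SD, n = 5 each), a log2 fold change of 1.12 (SE 0.14, limma adjusted p = 1.3e-05). Srgn was at 291 ± 32.4 TPM in PBMC and 264 ± 54.0 TPM in PBMC-hCG mice (SD, n = 5 each), with log2 fold changes over control of 0.67 and 0.51. Against IF, that of PBMC-hCG was -0.61 (SE 0.14, limma adjusted p = 0.0264), a call kept in 3 of 10 fits with a mouse left out. It was the 1 call among the 6 genes there, where 13.6% of all genes were called. For PBMC against IF it was -0.45 and did not pass adjustment, and for PBMC-hCG against PBMC it was -0.16. Ndst2, an enzyme of heparin synthesis, was higher in IF mice by 0.24 (SE 0.06, limma adjusted p = 0.0105).

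Of 16 genes of mast cell receptors, signaling and regulation, 3 were higher in IF than in control mice and 0 lower, beside 13.4% and 8.53% of all genes, and their median log2 fold change was 0.06. Mitf, a transcription factor of mast cells and melanocytes that is widely expressed, was at 7.26, 20.9, 7.01, 7.05 and 8.46 TPM in control and 23.0 to 34.5 TPM in IF mice, a log2 fold change of 1.55 (SE 0.22, limma adjusted p = 5.4e-05), with control replicate 2 the highest of its group. Gab2, an adaptor of KIT and IgE receptor signaling, differed by 0.65 (SE 0.09, limma adjusted p = 3.1e-05) and Syk, a kinase of the same pathway, by 0.31 (SE 0.09, limma adjusted p = 0.0168). Between PBMC-hCG and IF, 2 of the 16 genes were higher and 0 lower, where 13.6% of all genes were called in either direction. Kitl, the ligand of KIT, was higher by 0.28 (SE 0.07, limma adjusted p = 0.0309), at 24.7 ± 1.78 against 20.3 ± 1.99 TPM (SD, n = 5 each), and the kinase gene Lyn by 0.25 (SE 0.07, limma adjusted p = 0.0357). Both calls were kept in 3 of 10 fits with a mouse left out. Of 6 lipid mediator genes, 1 was higher and 1 lower in IF than in control mice, beside 13.4% and 8.53% of all genes. Between PBMC-hCG and IF 1 was higher and 0 lower, where 13.6% of all genes were called in either direction. The phospholipase gene Pla2g4a was lower in IF mice by a log2 fold change of -0.49 (SE 0.13, limma adjusted p = 0.00982). It was higher in PBMC-hCG than in IF mice by 0.43 (limma adjusted p = 0.0380), a call kept in 3 of 10 such fits. The leukotriene C4 synthase gene Ltc4s was higher in IF mice by 0.40 (limma adjusted p = 0.0362), in 4 of 10 such fits and in 6 of 9 other settings of the fit.

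The members fell into sets by their variation from mouse to mouse. Over the 20 mice, the 6 pairs of proteases had Pearson r between 0.81 and 0.91 on the log2 scale, and between 0.89 and 0.92 for deviations from the group means. Without control replicate 2 the latter range was 0.84 to 0.91 (n = 19). The proteases with Fcer1a and Ms4a2 had r of 0.58 to 0.78, and with Kit of -0.42 to -0.18. For deviations from group means, the range with Fcer1a and Ms4a2 was 0.58 to 0.79, and 0.38 to 0.76 without control replicate 2, where the 4 values of Ms4a2 were 0.38 to 0.49. The deviations gave -0.47 to -0.27 with Kit, which became -0.20 to 0.11 without that mouse. These values describe mice that share treatment groups, and whose TPM share a total, and carry no test.

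**Figure D5:**
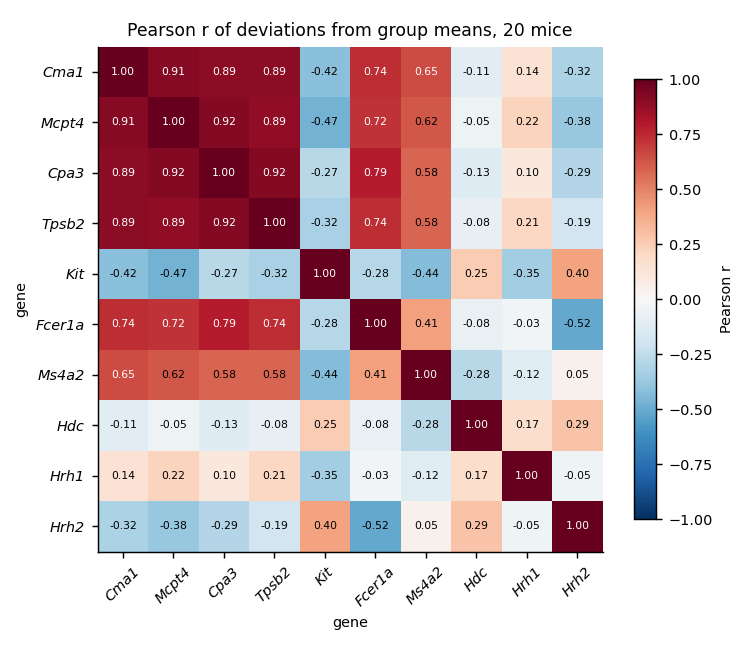
Pearson r between members, for deviations of log2(TPM + 0.1) from group means over 20 mice (both axes list the 10 genes; red is positive, blue negative). Cma1, Mcpt4, Cpa3 and Tpsb2 form a block with r of 0.89 to 0.92, which Fcer1a joins with 0.72 to 0.79, while Kit and Hdc stay outside it.

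The gene most like the mean of the 4 proteases among 15764 genes was Mcpt2 (r = 0.93 over 20 mice), the chymase-family gene of the same cluster. Mcpt2 was at 17.2, 31.7, 23.1, 19.6 and 18.1 TPM in control and 31.4, 12.7, 15.9, 15.5 and 18.3 TPM in IF mice. Control replicate 2 and IF replicate 1 were the highest of their groups, as for the proteases by which Mcpt2 was chosen in the same mice. The following genes were less alike, with Slc24a3, a sodium, potassium and calcium exchanger, at r = 0.71 and Matk, Id4, Gpnmb, Snhg7, Bex4, Dpysl5, Ccl21a and Zc2hc1c at 0.65 to 0.70. Without control replicate 2, r was 0.92 for Mcpt2 and 0.44 to 0.64 for the other 9 genes (n = 19). Sequence sharing of the members with transcripts of any other gene was small. Of the 50-base stretches, 5.38% of Cma1 (shared with Gm48934), 5.48% of Mcpt4 (mostly with Cma2) and 2.69% of Ms4a2 (with Ms4a4b) also occurred elsewhere. None of those of the other 7 members did.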

How the data were processed

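Uterine RNA of 20 mice was sequenced from stranded, poly(A)-selected libraries, with group and replicate number read from the labels. The deposited values are TPM, which the authors made with Trimmomatic (trimming), HISAT2 (alignment to mm10) and StringTie (transcript assembly), whose versions are not given in the sources used here. The authors' own test was edgeR's exact test on read counts, so log2(TPM + 0.1) was tested here with limma (version 3.58.1; R 4.3.3), fitting the 4 groups together and letting the variance depend on the level. Following the study's filter, a gene entered the test when it was above 0 TPM in every library (18706 genes). Within a comparison, p was adjusted after Benjamini and Hochberg, and 0.05 was the threshold. Fold changes on the log2(TPM + 0.1) scale understate those of low genes. Depth is unknown, so no counting interval is given.

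The members, the further gene lists and the tests were chosen with earlier results of these data known. All members are named; list genes are named where they passed adjustment, at most 6 a list, and the most similar genes are the 10 with the highest Pearson r and a mean of at least 1 TPM, of which 1 is not reported here. For single members, all 252 arrangements of 5 against 5 mice also gave an exact permutation test (two-sided). On simulated data in which 200 of 18706 genes differed between IF and control by 2 on the log2 scale, 189 were recovered with 6 false calls. Gene positions and promoter windows are from RefSeq on GRCm38.p6, the same assembly as mm10, and shared stretches were counted on GENCODE M21 transcripts. Alternatives were other pseudocounts, filters, scalings, fits, a replicate block, the study's call rule and each mouse left out in turn. The labels name no batch or date. Tables were summarised in Python 3.11.15 and figures drawn with matplotlib 3.10.9.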

Additional observations from a re-analysis of the deposited data

Results flagged for a closer look

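In 4 of the 40 combinations of member and group, 1 mouse lay far from the other mice, by Dixon's 95% criterion for 5 samples, which chance meets in about 1 of 20 such groups. Cma1 was at 27.19 TPM in IF replicate 1, against 13.61 to 15.88 TPM in the other IF mice. Fcer1a was at 2.505 TPM in the same mouse, against 0.3708 to 0.978 TPM. Tpsb2 was at 24.81 TPM in control replicate 2, the mouse with the high adipose genes, against 10.34 to 13.34 TPM in the other control mice. Hdc was at 96.7 TPM in PBMC-hCG replicate 4, against 118.2 to 123.4 TPM in the other mice of that group. What set these mice apart was not tested.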

How the results depend on the processing

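The Hrh1 call in IF against control held in 8 of 8 alternative settings that tested the gene (log2 fold change 0.75 to 1.72, limma adjusted p = 0.00225 to 0.00426) and in 10 of 10 fits with a mouse left out (1.33 to 1.61). The number of members called there was 0 with the filter of a mean of at least 1 TPM, which leaves out Hrh1 by construction, and 1 to 2 with a mouse left out, where the added call was Hdc without control replicate 2 or 5 and Mcpt4 without IF replicate 1. In PBMC-hCG against IF, 1 member (Hrh1) was called with a pseudocount of 1, with quantile normalization and with median scaling, and 0 to 1 with a mouse left out. In PBMC against control, 0 to 1 were called with a mouse left out (Hrh1 without PBMC replicate 2, limma adjusted p = 0.0467). The other comparisons had 0 calls among the members in every setting.

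Signs changed for small differences that passed no test, and the cause was not tested. With a pseudocount of 1 the log2 fold change was -0.00492 for Fcer1a in PBMC-hCG over IF and -0.0215 for Ms4a2 in PBMC over control. With quantile normalization it was -0.00477 for Kit in IF over control, -0.11 for Fcer1a and -0.0456 for Hrh2 in PBMC-hCG over IF, and -0.00342 for Ms4a2 and -0.0235 for Hrh2 in PBMC over control. With median scaling it was -0.0162 for Fcer1a in PBMC-hCG over IF and -0.00161 for Hrh2 in PBMC over control. With 1 mouse left out in turn, log2 fold changes that changed sign between IF and control ran from -0.13 to 0.11 for Kit and -0.37 to 0.013 for Tpsb2. Between PBMC and IF they ran from -0.048 to 0.57 for Fcer1a. Between PBMC-hCG and IF they ran from -0.25 to 0.37 for Fcer1a and -0.034 to 0.19 for Hrh2. Between PBMC-hCG and PBMC they ran from -0.22 to 0.024 for Cma1, -0.18 to 0.086 for Cpa3, -0.37 to 0.043 for Fcer1a and -0.20 to 0.013 for Mcpt4. Between PBMC and control they ran from -0.20 to 0.15 for Cma1, -0.066 to 0.20 for Cpa3, -0.32 to 0.10 for Fcer1a, -0.51 to 0.0305 for Hdc, -0.11 to 0.20 for Hrh2, -0.15 to 0.34 for Ms4a2 and -0.12 to 0.19 for Tpsb2. Between PBMC-hCG and control they ran from -0.35 to 0.0041 for Cma1, -0.14 to 0.14 for Cpa3, -0.44 to 0.10 for Hdc, -0.45 to 0.0397 for Ms4a2 and -0.0019 to 0.33 for Tpsb2.

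Replicate numbers were checked for pairing across groups. Deviations of same-numbered mice correlated at -0.247 to 0.457, with 8 of 30 pairs over 0.1 and 2 of 20 libraries closest to their own number. The highest were those of replicate 5, at 0.457 between PBMC and IF, 0.396 between IF and control and 0.272 between PBMC and control. With PBMC-hCG replicate 5 they were -0.09 for IF, -0.083 for PBMC and -0.059 for control. The main fit did not pair the mice by number, and whether the replicate 5 mice share a factor was not tested. A fit with the replicate number as a block called 1 member in IF against control and 0 in the other comparisons, as without the block, while the list gene Ltc4s in IF against control then had an adjusted p of 0.0557 (limma). With the 2 groups fitted alone, Maob (limma adjusted p = 0.0622), Hnmt (0.0694), Syk (0.0730) and Ltc4s (0.108) were not called in IF against control, nor Pla2g4a (0.0611) in PBMC-hCG against IF. The number of all genes called moved by over 1.5 times in IF against control (4104, and 2473 when the 2 groups were fitted alone) and in PBMC-hCG against IF (2544, and 1536 for genes above 0 TPM in at least 5 libraries, with 0 to 5061 when a mouse was left out). The unknown depth limits what can be said of Ms4a2, Hrh1 and Hrh2, which lie near or below 1 TPM.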

Other observations

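The levels of the chymase genes Mcpt4 and Cma1 stood in a nearly fixed ratio in the control group. Mcpt4 over Cma1 was 0.985 to 1.03 in the 5 control mice, with a coefficient of variation of 1.90%, including control replicate 2 with its high level of both. The ratio was 0.764 to 0.968 in IF, 0.773 to 0.968 in PBMC and 0.663 to 1.12 in PBMC-hCG mice, so that the control range lay above those of the IF and PBMC groups. In the control mice the coefficient of variation of the other ratios to Cma1 was 9.92% for Cpa3, 11.95% for Tpsb2, 14.9% for Mcpt2 and 49.6% for Kit. The Mcpt4 ratio was chosen as the steadiest after the values had been seen, and was not tested. How often ratios of other gene pairs separate these groups was not computed.

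The granule protease cluster on chromosome 14 also holds granzyme genes. Averaged over the 20 mice, Gzmf was at 103.8 TPM, Gzmd at 33.4, Gzme at 20.4 and Gzmg at 6.40 TPM, beside Cma1 at 19.6 and Mcpt4 at 17.9 TPM. The basophil protease gene Mcpt8 in the same cluster was at 0.212 TPM and the cathepsin G gene Ctsg at 0.623 TPM. These granzymes are close relatives, and how reads were divided between them was not tested.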
